A study of Mus musculus with 12 samples.

Results

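The genes described here are 36 interferon-stimulated genes outside the Ifit family and the immunity-related and guanylate-binding GTPases. They were taken by symbol from a list, and all 36 were found among the 54232 genes of the series table. The list was chosen with earlier results of these data known. The study sequenced polyadenylated RNA from 12 small pools of retinal cells of adult male wild-type mice (genotype WT), in 4 groups of 3 libraries. All mice had an optic nerve crush, which severs the axons of the retinal ganglion cells, and all eyes had an AAV2 virus injected into the vitreous. GFP day 7 and GFP day 14 are the pools given AAV-GFP, the control virus, and taken 7 or 14 days after the crush. Olig1 day 7 and Olig1 day 14 are the pools given AAV-Olig1, which carries Olig1, a bHLH regulator of oligodendrocyte development. The labels record 14 days of virus for every library, whatever the time after the crush. Per the labels, cells were bound with beads against CD90.2, and cells were then picked on a Unipick instrument. The number of cells in a pool is given as between 10 and 20, differently in different labels. No promoter of the vectors is named in the sources used here, and the labels do not say whether a pool came from 1 animal. The spread behind each p-value is therefore that of these libraries, and it may be technical.

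Interferons are secreted signals of infection and tissue damage. Their receptors act through JAK kinases and STAT proteins, and the type I signal ends in a complex with STAT2 and IRF9 that binds the interferon-stimulated response element in the promoters of its target genes. The targets include sensors of foreign RNA, enzymes that conjugate the ubiquitin-like protein ISG15, the oligoadenylate synthetases and many effectors that block steps of viral growth. In the retina, microglia, Müller glia and neurons can all express such genes, and AAV capsids and genomes are known to engage innate sensors.

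Total counts ran from 12534515 to 27602459 per library, and levels are given as CPM, counts scaled to a library total of 1e6. Where a gene had 0 counts, a level of up to 0.109 to 0.239 CPM (3 counts, depending on the library) remains possible, and this limit covers counting error only. The targeted gene Olig1 was at 0 to 0.351 CPM in the 6 GFP libraries, 249 to 1029 CPM at Olig1 day 7 and 56.4 to 520 CPM at Olig1 day 14. Ganglion cell markers summed to 227 to 425 CPM in the 6 GFP libraries and in Olig1 day 14 replicates 1 and 3 (289 and 240 CPM), and to 3303 to 4969 CPM in the Olig1 day 7 libraries and 3985 CPM in Olig1 day 14 replicate 2. Isl1, a gene of this marker list, made up a large part of the sum in most GFP libraries, at 44.6 to 200 CPM. With Olig1 it was at 2.72 to 59.99 CPM at day 7 and 29.3 to 70.6 CPM at day 14. Its levels thus tended to be lower with Olig1, with overlap, unlike the sum. Slc17a6, a transporter that defines ganglion cells, was at 0 in 5 of the 6 GFP libraries. Müller glia markers stood at 47366 to 147683 CPM everywhere. The labelled cell type was therefore weakly marked in 8 of the 12 libraries, and the groups are called by virus and day below.

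Olig1 day 7 replicate 2 shared transcripts with Olig1 day 7 replicate 1. Of the genes found nearly only in replicate 1 (at least 20 CPM there and under a twentieth of that in the 10 libraries outside this pair), 24 of 24 were also present in replicate 2, at a median of 0.200 of their level in replicate 1 (quartiles 0.184 and 0.253). Among 99 other ordered pairs of libraries with at least 5 such genes, the highest median was 0.0275. Many of the interferon-stimulated genes also stood lower in replicate 2 than in replicate 1. Of the 21 at 5 CPM or more in replicate 1, 14 stood in replicate 2 at 0.15 to 0.4 of their replicate 1 level, with a median of 0.249 over the 21. The exceptions above 0.4 were Ifih1, Bst2, Ifitm3, Ifi27 and Xaf1. In replicate 3 the same 21 genes had a median ratio of 1.79 to replicate 1, with quartiles of 0.251 and 2.72. These ratios are in CPM, without the scaling for composition (TMM), whose factors were 1.219 for replicate 1 and 0.681 for replicate 2. The share of all genes in that range was not computed, so the ratios of the 21 alone do not show shared transcripts. Replicates 1 and 2 may not be independent, and the day 7 fold changes that the text turns on are also given without replicate 2. DESeq2 and limma voom, the latter with a weight for each library, were run only with replicate 2.

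**Figure D1:**
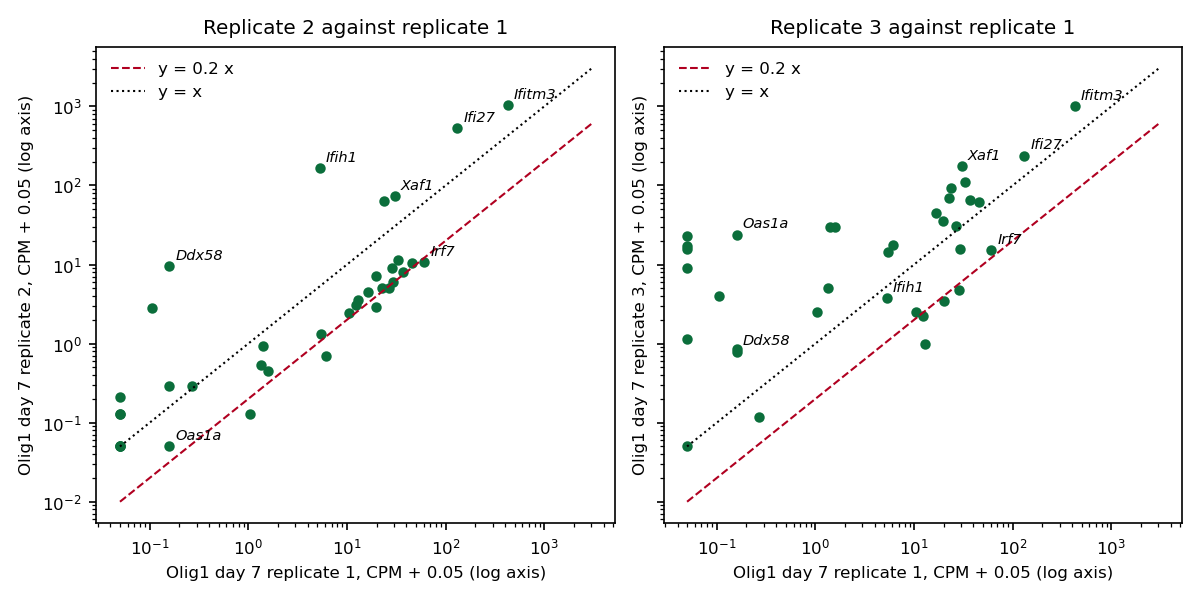
Levels of the 36 genes in Olig1 day 7 replicate 2 (left) and replicate 3 (right) against replicate 1, each point 1 gene, in CPM with 0.05 added, on log axes. On the left 14 of the 21 genes at 5 CPM or more in replicate 1 lie at 0.15 to 0.4 of their replicate 1 level, near the dashed line of ratio 0.200, with Ifih1 far above it, and on the right the points scatter around the dotted line of equality.

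The promoter letters of the genes were looked up in RefSeq (GRCm38.p6), which gave entries for 26 of the 36. The core of the interferon-stimulated response element was searched as GAAA, any 2 bases and GAAA again, on both strands, from 250 bases before to 50 bases after each start, with overlapping matches allowed. It was found for 11 of the 26 genes (42.3%) and for 3.99% of all 27025 genes with an entry. The 11 were Stat2, Isg15, Trim30a, Ifih1, Ddx58, Eif2ak2, Oas1a, Oas3, Rsad2, Bst2 and Ifitm3. The 150 bases before the start are shown for 5 genes with a match, to show its form and distance from the start, and for Oasl2 and Lgals3bp, which had none and stood lower with Olig1 at day 14. Each is read in the direction of the gene, with matches in capitals, the 3 matches of Isg15 and the 2 each of Oas1a and Bst2 overlap, and those of Trim30a and Rsad2 lie on the other strand. They are chr4:156200819-156200968 (minus strand) for Isg15, chr5:120907526-120907675 (minus) for Oas1a, chr7:104465194-104465343 (minus) for Trim30a, chr8:71537473-71537622 (minus) for Bst2, chr12:26456453-26456602 (minus) for Rsad2, chr5:114896784-114896933 (plus) for Oasl2 and chr11:118401960-118402109 (minus) for Lgals3bp.
Isg15: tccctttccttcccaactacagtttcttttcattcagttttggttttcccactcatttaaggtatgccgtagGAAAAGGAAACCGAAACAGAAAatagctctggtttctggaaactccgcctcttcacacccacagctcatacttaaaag
Oas1a: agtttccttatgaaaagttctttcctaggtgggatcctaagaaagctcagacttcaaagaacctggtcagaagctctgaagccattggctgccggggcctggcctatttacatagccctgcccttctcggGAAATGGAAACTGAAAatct
Trim30a: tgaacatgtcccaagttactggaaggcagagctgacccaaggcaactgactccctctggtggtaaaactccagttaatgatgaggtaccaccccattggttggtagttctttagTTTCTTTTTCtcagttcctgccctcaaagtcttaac
Bst2: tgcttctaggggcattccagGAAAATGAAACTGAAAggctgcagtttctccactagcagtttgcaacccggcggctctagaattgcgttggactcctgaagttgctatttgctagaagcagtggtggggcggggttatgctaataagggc
Rsad2: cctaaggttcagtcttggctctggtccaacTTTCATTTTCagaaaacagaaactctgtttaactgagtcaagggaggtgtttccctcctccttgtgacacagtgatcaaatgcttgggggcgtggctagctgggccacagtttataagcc
Oasl2: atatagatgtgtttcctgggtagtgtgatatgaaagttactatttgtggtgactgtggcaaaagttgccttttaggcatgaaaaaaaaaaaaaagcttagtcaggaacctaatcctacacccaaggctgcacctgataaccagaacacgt
Lgals3bp: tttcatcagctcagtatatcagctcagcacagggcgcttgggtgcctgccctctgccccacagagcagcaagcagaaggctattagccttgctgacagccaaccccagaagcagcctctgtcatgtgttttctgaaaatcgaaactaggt
A match describes the letters only, and no match says only that these letters are not in this window.

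Most of the 36 genes were expressed in some pools and near 0 in others. Of the 36, 35 had a count somewhere, and Mx1, a dynamin-like antiviral GTPase, had 0 counts in all 12 libraries. Per kilobase of exon and averaged over the 12 libraries, Ifitm3, a membrane protein that blocks viral fusion, led with 1026 CPM per kb. Ifi27, a mitochondrial interferon-induced protein, followed with 132, Bst2, the virus tether, with 49.8 and Isg15 with 42.1 CPM per kb. The lowest gene that could be tested was Mx2, at 0.0981 CPM per kb. Between these neighbours the order is loose, since the SD within a group often exceeded the mean, as for Ifitm3 at GFP day 7 (1327 ± 1699 CPM, n = 3).

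The number of the 36 genes at 10 CPM or more varied with the library. It was 20, 21 and 16 in the GFP day 7 libraries (replicates 1, 2 and 3), 18, 8 and 21 at Olig1 day 7, 23, 15 and 19 at GFP day 14, and 6, 11 and 11 at Olig1 day 14. The 3 Olig1 day 14 libraries lay below all 3 GFP day 14 libraries in this count. Of the 35 genes with a count, 16 had their highest level in a GFP day 14 library, 9 at GFP day 7, 9 at Olig1 day 7 and 1, Dhx58, at Olig1 day 14. GFP day 14 replicate 1 alone held 12 of these maxima, although it had the fewest genes with a count of any library (10129). Olig1 day 7 replicate 3 held 6.

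**Figure D2:**
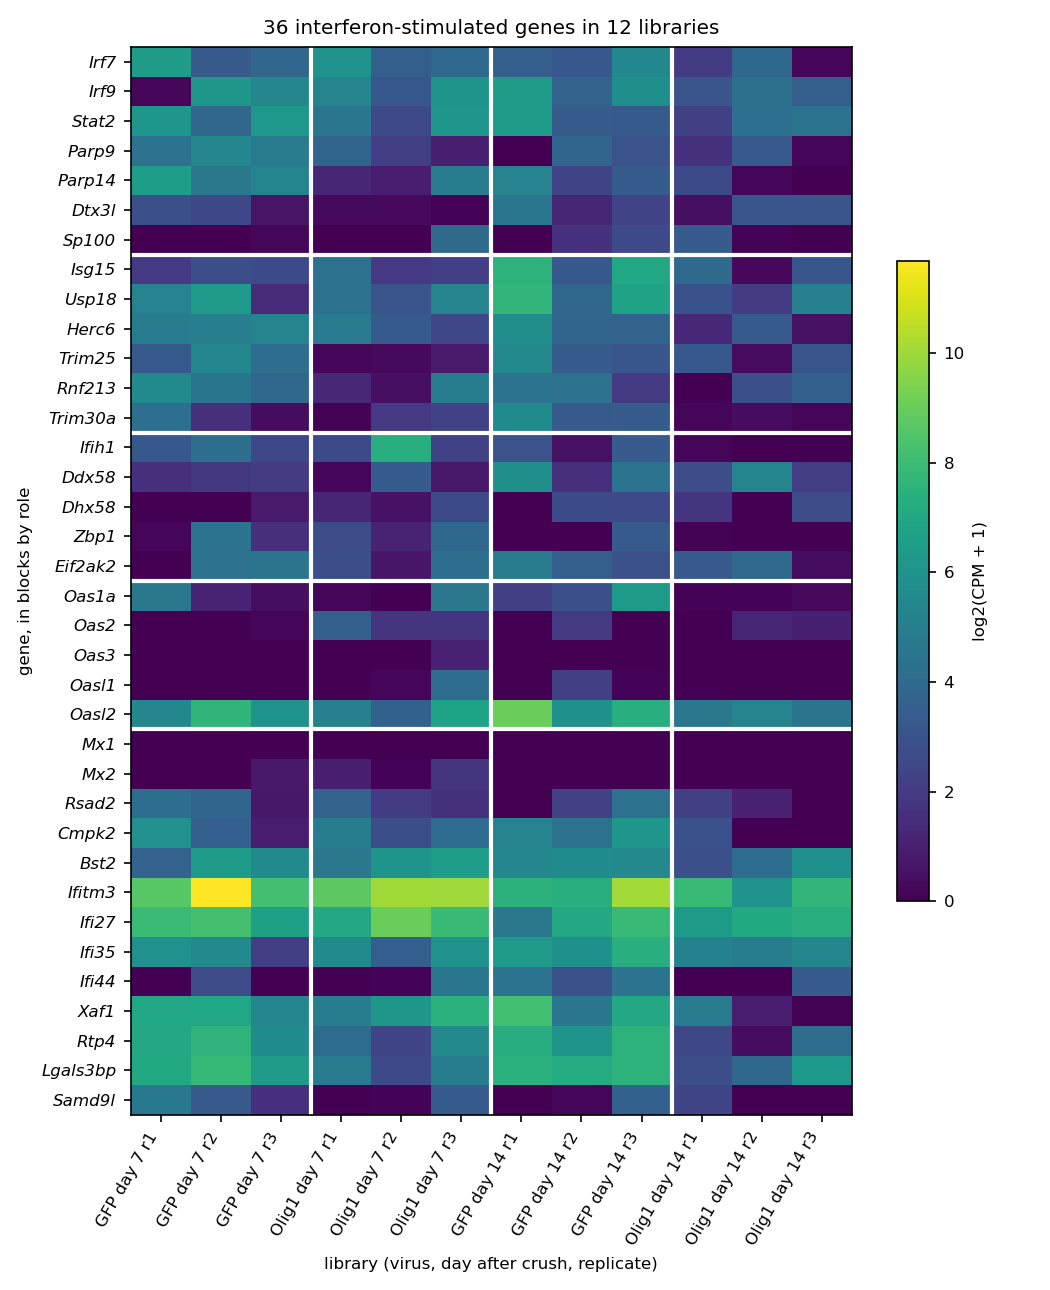
Level of each of the 36 genes (rows, in blocks by role from signalling to effectors) in each of the 12 libraries (columns, in 4 groups), as log2(CPM + 1). Ifitm3 is the brightest row, Mx1 is at 0 throughout, and the Olig1 day 14 columns on the right hold 6 to 11 genes at 10 CPM or more.

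The virus difference was tested at each day with edgeR's quasi-likelihood test in 1 fit of all 12 libraries, with p-values adjusted over all 14985 genes that passed the filter on low counts. Of the 36 genes 33 passed it, and Oas3, Oasl1 and Mx1 did not. Fold changes are on the log2 scale and set Olig1 against GFP, after scaling of library totals for composition (TMM). The SE given with each is not an output of edgeR. It was derived as the absolute fold change over the square root of the F statistic of the test, and is approximate.

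At day 7 Lgals3bp, Rtp4, Trim25, Parp9 and Dtx3l were lower in every Olig1 library than in any GFP library, while Isg15, Usp18 and Oasl2 overlapped between the viruses. None of the 33 genes was called by edgeR at day 7 at an adjusted p of 0.05, where 0.227% of all genes were. At an unadjusted p of 0.05 there were 4 of 33, with 13.9% over all genes. DESeq2 called 2, Trim25 and Lgals3bp, where it called 6.37% of all genes, and limma voom called 1, Trim25, where it called 2.87%, so these counts were near the rate over all genes. The log2 fold change was negative for 21 of 33 genes (50.7% of all genes) with a median of -0.36, against -0.03 over all genes. The median was 0.20 without GFP day 7 replicate 2 and 0.29 with limma voom, so its sign was not stable. Without Olig1 day 7 replicate 2, 21 of 34 genes were negative, the median was -0.38 and edgeR called 0. The groups did not overlap for 5 genes lower with Olig1 (Parp9, Dtx3l, Trim25, Rtp4 and Lgals3bp, where the share over all genes was 9.01%) and for 1 higher, Oas2 (9.40%). Without Olig1 day 7 replicate 2 they did not overlap for these 5 and Ddx58 (10.1% of all genes) and for 3 higher, Dhx58, Oas2 and Mx2 (15.9%).

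At day 14 most of the genes stood lower in the Olig1 pools, led by Rtp4, Oasl2, Ifih1, Oas1a, Lgals3bp and Trim30a. The log2 fold change was negative for 31 of 33 genes, where 46.1% of all genes were negative. The median was -2.03, against 0.09 over all genes. Sp100 was the only positive value (0.12 ± 2.86), and Mx2 had 0 counts in both groups. EdgeR called 0 of the 33, and 0.0400% of all genes. At an unadjusted p of 0.05 there were 11 genes (10.4% of all genes passed it), all lower with Olig1, where 4.86% of all genes were lower at that p. DESeq2 called 4 (Oasl2, Trim30a, Rtp4 and Isg15, all lower), where it called 4.96% of all genes, and limma voom called 0 (0.367%). The groups did not overlap for 9 genes lower with Olig1 (Herc6, Trim30a, Ifih1, Oas1a, Oasl2, Cmpk2, Ifi35, Rtp4 and Lgals3bp), with a share of 4.12% over all genes, and for 0 genes higher (7.78%). In pools, fewer cells that express a gene and less RNA per cell cannot be told apart. Of these 9 genes 8 had a promoter entry, and 3 of the 8 (Trim30a, Ifih1 and Oas1a) held the response element letters.

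**Figure D3:**
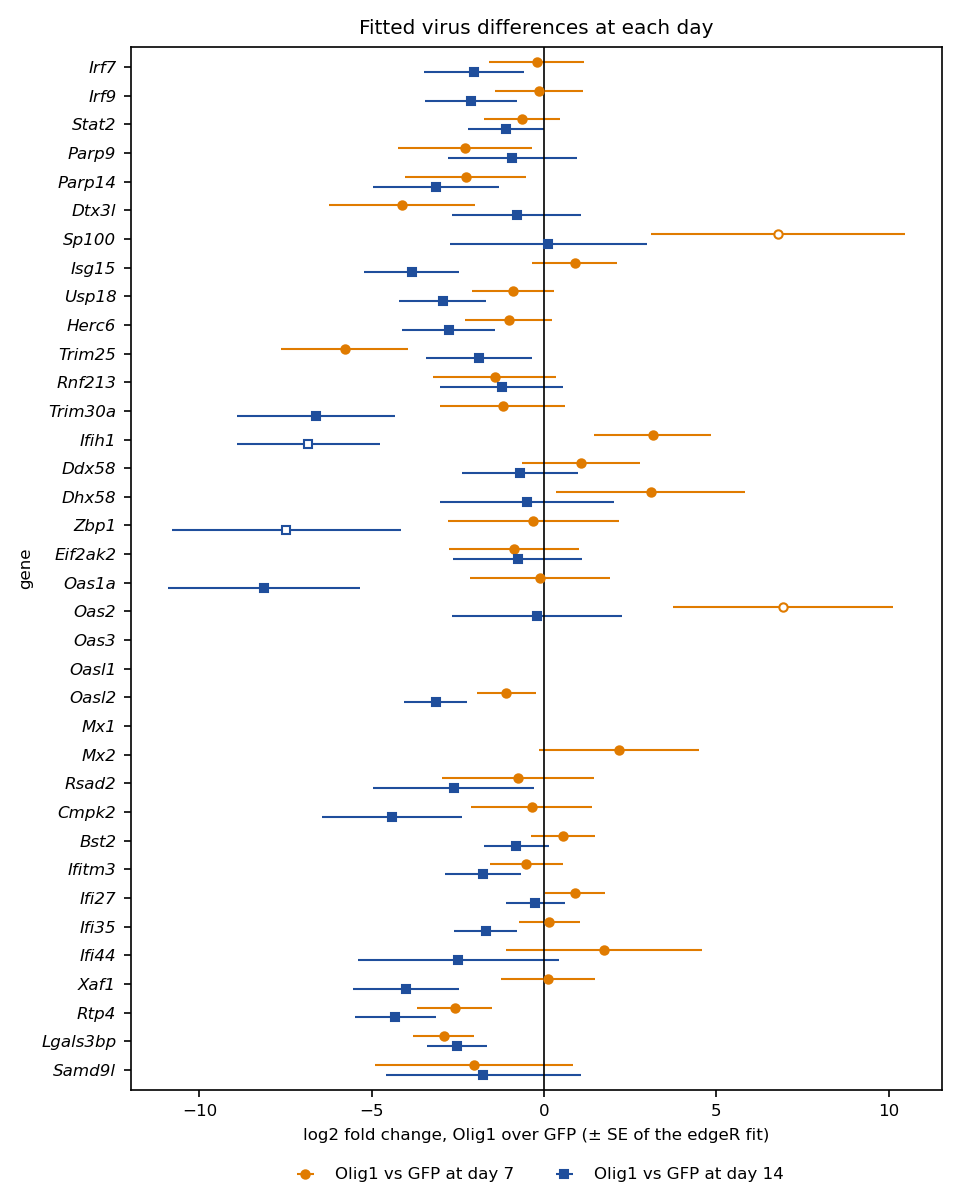
Fitted log2 fold change of Olig1 over GFP ± the SE derived from the F statistic, for each tested gene at day 7 (orange circles) and day 14 (blue squares). Open symbols mark genes with 1 to 3 counts in the low group, whose fitted size depends on the prior count, and genes without a symbol were not tested or had 0 counts in both groups. At day 14 all values but that of Sp100 lie left of 0, and at day 7 they lie on both sides.

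Microglia and macrophage markers also differed between the libraries. Their sum over 16 genes was 1567 to 10035 CPM in 4 libraries (GFP day 7 replicate 3, Olig1 day 7 replicate 3 and GFP day 14 replicates 2 and 3) and 4.03 to 52.5 CPM in the other 8. At day 14 it was 25.3, 7172 and 10035 CPM in the GFP libraries and 4.03 to 18.0 CPM in the Olig1 libraries. In GFP day 14 replicate 1 the microglia genes Cx3cr1, Aif1 and C1qa were at 0, and P2ry12, also a microglia gene, made up 24.5 of its 25.3 CPM. In the 4 libraries, in the order above, P2ry12 was at 12.8, 4.53, 52.5 and 18.1 CPM. GFP day 14 replicate 1 had the highest level of any library for Isg15, Usp18, Oasl2 and Xaf1 (186, 202, 531 and 279 CPM). The same 4 genes were at 8.22, 13.8, 58.0 and 22.8 CPM in GFP day 14 replicate 2. In GFP day 14 replicate 3 they were at 124, 104, 163 and 130 CPM. Without the 4 libraries, which leaves 1 GFP library at day 14 whose spread is assumed equal to that of the other groups, 23 of 33 genes were negative and the median was -1.98. The median of all genes was then 1.53. Calls from this fit, with 1 library in a group, are not given. B and plasma cell markers summed to 132547 CPM in GFP day 14 replicate 3 and to at most 67.4 CPM elsewhere. With the immunoglobulin genes left out before scaling the day 14 median was -2.03. Bipolar cell markers were also lower with Olig1 without overlap, at 1448 to 5505 CPM against 217 to 517 CPM at day 14 and 1150 to 2179 CPM against 236 to 521 CPM at day 7. Rod markers were at 10304 to 52178 CPM with GFP and 551 to 766 CPM with Olig1 at day 7, and overlapped at day 14. Astrocyte markers were at 503 to 727 CPM with GFP and 85.6 to 223 CPM with Olig1 at day 7. Endothelial markers were at 225 to 382 CPM against 74.35 to 192 CPM at that day. Amacrine markers were higher with Olig1 at day 7, at 340 to 655 CPM against 1536 to 3480 CPM. All of these overlapped at day 14. The part of other cell types in the difference was not tested further.

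**Figure D4:**
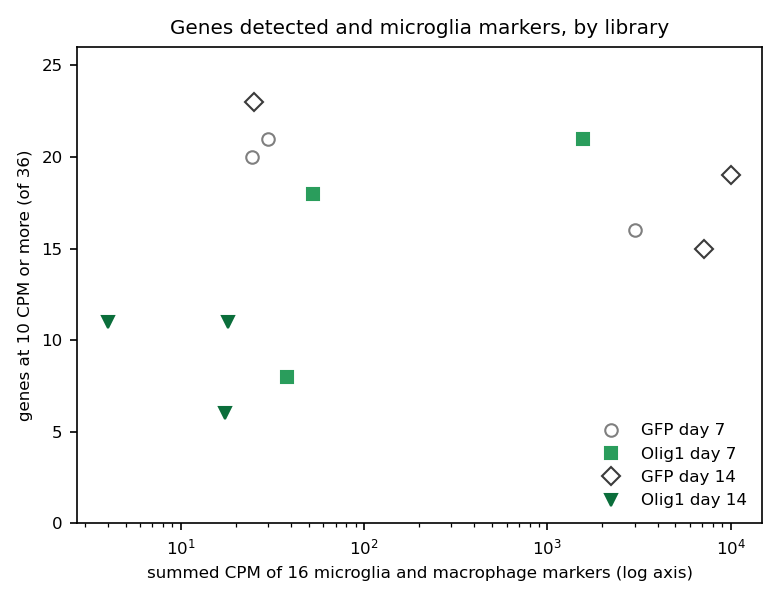
Number of the 36 genes at 10 CPM or more in each of the 12 libraries against the summed CPM of 16 microglia and macrophage markers on a log axis, with symbols for the 4 groups. The 4 libraries on the right, from 1567 CPM, hold 15 to 21 of the genes, GFP day 14 replicate 1 holds 23 at 25.3 CPM, and the Olig1 day 14 libraries hold 6 to 11.

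Among the genes of signalling and transcription, none passed the test at either day, with 6 of 7 values negative at each. Irf7, the factor that amplifies interferon production, was at 10.7, 8.26 and 42.4 CPM at GFP day 14 and at 3.10, 14.0 and 0.160 CPM at Olig1 day 14. Its groups overlapped (-2.03 ± 1.44, edgeR adjusted p = 0.794). Irf9 and Stat2, partners in the interferon-activated complex, had values of -2.12 ± 1.33 and -1.10 ± 1.11 at day 14 and -0.15 ± 1.28 and -0.65 ± 1.10 at day 7. Irf9 was at 0.160 CPM in GFP day 7 replicate 1 and at 71.3 and 41.5 CPM in the other libraries of that group, so 1 pool nearly lacked it.

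Parp9, Dtx3l and Parp14 are neighbours on chromosome 16 (35832874 to 35972605). Parp9 and Dtx3l form a complex of an ADP-ribosyltransferase and a ubiquitin ligase, and Parp14 is another ADP-ribosyltransferase. Parp9 was at 20.5, 41.7 and 27.9 CPM at GFP day 7 and at 12.8, 3.51 and 0.946 CPM at Olig1 day 7. Dtx3l was at 6.29, 4.82 and 0.527 CPM against 0.217, 0.239 and 0.0676 CPM at the same day. Both stood lower in every Olig1 day 7 library than in any GFP day 7 library, with log2 fold changes of -2.30 ± 1.95 and -4.12 ± 2.13 (edgeR adjusted p = 0.663 and 0.407). Without Olig1 day 7 replicate 2 they were -2.30 and -4.83 (edgeR adjusted p = 0.899 and 0.666). At day 14 the groups overlapped for all 3 neighbours. The exons of Parp9 and Dtx3l share 458 bases on opposite strands, and since the strand setting of the counting is not given, reads there cannot be assigned with certainty. Sp100, a protein of PML nuclear bodies, had 2 counts in all at GFP day 7 and 15.6 CPM in Olig1 day 7 replicate 3, with 0 in the other libraries of that group. The ratio of pooled counts was 136 (95% counting interval 37.3 to 1131), and it rested on that 1 library: without it the log2 fold change was -2.65.

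Of the 6 genes of the ISG15 system and of related ubiquitin ligases, all 6 were lower with Olig1 at day 14, and none passed the edgeR test. Isg15 (ENSMUSG00000035692, chromosome 4, 156199424 to 156200818), the ubiquitin-like modifier, was at 186, 8.22 and 124 CPM at GFP day 14 and at 15.4, 0.204 and 7.71 CPM at Olig1 day 14. GFP replicate 2 was below the highest Olig1 library, so the groups overlapped. The log2 fold change was -3.84 ± 1.38 (edgeR adjusted p = 0.438, DESeq2 adjusted p = 0.0424). At day 7 Isg15 was low with both viruses, at 2.98, 6.02 and 5.09 CPM with GFP and 19.8, 2.87 and 3.45 CPM with Olig1 (0.89 ± 1.24). Usp18 (ENSMUSG00000030107), the protease that removes ISG15 and damps the interferon receptor, was at 202, 13.8 and 104 CPM at GFP day 14 against 6.78, 3.26 and 32.8 CPM with Olig1. As with Isg15, replicate 2 of GFP overlapped with the Olig1 libraries (-2.94 ± 1.27, edgeR adjusted p = 0.440), and the value was -4.44 without Olig1 replicate 3.

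Trim30a (ENSMUSG00000030921, chromosome 7, 104409025 to 104465193), a mouse TRIM protein that restrains Toll-like receptor signalling, was at 49.8, 8.95 and 9.52 CPM at GFP day 14. With Olig1 it was at 0.145, 0.326 and 0.160 CPM, from 14 counts in all. Every GFP library lay above every Olig1 library (-6.61 ± 2.29, edgeR adjusted p = 0.438, DESeq2 adjusted p = 0.000838). Trim30a has close paralogs, so its reads cannot be assigned with certainty. Herc6, the main ISG15 ligase of the mouse, was at 53.5, 12.8 and 12.4 CPM against 1.45, 8.84 and 0.426 CPM, and the groups did not overlap (-2.77 ± 1.34, edgeR adjusted p = 0.494).

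Trim25 (ENSMUSG00000000275, chromosome 11, 88999376 to 89020293) is the ubiquitin ligase that activates the sensor RIG-I, and it had the largest negative value of the 33 genes at day 7. It was at 8.84, 40.8 and 17.1 CPM with GFP and at 0.109, 0.239 and 0.811 CPM with Olig1. The groups were far apart, and the log2 fold change was -5.79 ± 1.83 (edgeR adjusted p = 0.234, DESeq2 adjusted p = 0.000464, limma voom adjusted p = 0.0463). Without Olig1 day 7 replicate 2 it was -5.78 (edgeR adjusted p = 0.648). At day 14 the groups overlapped, with Olig1 replicates 1 and 3 at 8.29 and 7.29 CPM (-1.89 ± 1.53). Rnf213, a giant ubiquitin ligase, had values of -1.43 ± 1.79 at day 7 and -1.23 ± 1.78 at day 14.

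**Figure D5:**
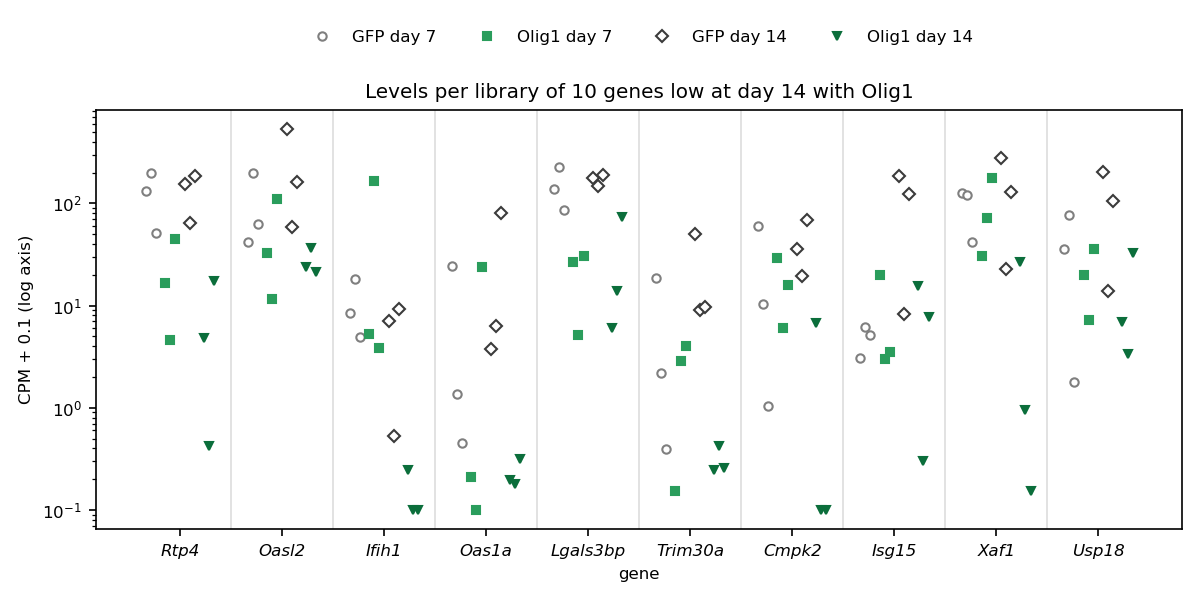
Level of the 10 named day 14 genes in every library, as CPM with 0.1 added on a log axis, with 1 point per library and symbols for the 4 groups. For Rtp4, Oasl2, Ifih1, Oas1a, Lgals3bp, Trim30a and Cmpk2 all 3 Olig1 day 14 libraries (filled triangles) lie below all 3 GFP day 14 libraries (open diamonds), while for Isg15, Xaf1 and Usp18 a GFP library lies among them.

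Of the 5 sensors of nucleic acids, 2 had negative values at day 7 and 5 at day 14, and none passed the edgeR test. Ifih1 (ENSMUSG00000026896, chromosome 2, 62595798 to 62646255) encodes MDA5, the sensor of long double-stranded RNA. It was at 6.98, 0.435 and 9.14 CPM at GFP day 14 and at 0.145, 0 and 0 CPM with Olig1. Those are 3 counts in 3 libraries, and the ratio of pooled counts of GFP over Olig1 was 113 (95% counting interval 38.5 to 551, edgeR adjusted p = 0.438). At day 7 Ifih1 was at 8.31, 18.0 and 4.80 CPM with GFP and at 5.22, 167 and 3.72 CPM with Olig1. Its fold change at day 7 turned on 1 library: it was 3.15 ± 1.70 with Olig1 day 7 replicate 2 and -1.41 without it.

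Ddx58, which encodes RIG-I, was at 55.1, 2.10 and 20.9 CPM at GFP day 14 and 5.77, 37.6 and 3.35 CPM with Olig1, and the groups overlapped (-0.70 ± 1.69). Zbp1, a sensor of Z-form nucleic acids, had 213 counts at GFP day 14, all of them in replicate 3 (8.89 CPM), and 1 count with Olig1, a ratio of pooled counts of 177 (95% counting interval 31.4 to 7018, edgeR adjusted p = 0.452). At day 7 it was at 0.107, 20.9 and 1.99 CPM with GFP and at 5.44, 1.28 and 14.4 CPM with Olig1 (-0.31 ± 2.49). Dhx58, which encodes LGP2, and Eif2ak2, which encodes the kinase PKR, had day 14 values of -0.50 ± 2.53 and -0.77 ± 1.87. Their day 7 values of 3.09 ± 2.74 and -0.87 ± 1.88 were as uncertain.

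The 5 genes of the oligoadenylate synthetase family, whose products activate RNase L or resemble such enzymes, all lie on chromosome 5. Oasl2 (ENSMUSG00000029561, 114896936 to 114912234) was at 531, 58.0 and 163 CPM at GFP day 14 and at 24.0, 36.7 and 21.3 CPM with Olig1. The 3 Olig1 libraries lay close together and below all GFP libraries (-3.15 ± 0.92, edgeR adjusted p = 0.438, DESeq2 adjusted p = 0.0178). At day 7 the groups overlapped, at 41.7, 198 and 63.3 CPM with GFP and 32.6, 11.5 and 109 CPM with Olig1 (-1.09 ± 0.86).

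Oas1a (ENSMUSG00000052776, 120896256 to 120907521) was at 3.65, 6.20 and 80.5 CPM at GFP day 14 and at 0.0969, 0.0815 and 0.213 CPM with Olig1, from 8 counts. The groups did not overlap (-8.13 ± 2.79, edgeR adjusted p = 0.438), and the value was -5.05 without GFP day 14 replicate 3. Its close paralogs leave its reads uncertain. Oas2 went the other way at day 7, with 10.5, 2.39 and 2.43 CPM in the Olig1 libraries and 2 counts in all in the GFP libraries. The ratio of Olig1 over GFP was 153 (95% counting interval 42.0 to 1273, edgeR adjusted p = 0.349, or 0.648 without Olig1 day 7 replicate 2), and at day 14 the value was -0.20 ± 2.46. Relative to Olig1 day 7 replicate 1, Oas2 stood at 0.228 in replicate 2 and at 0.232 in replicate 3. Oas3 had counts only in Olig1 day 7 replicate 3 (16 counts). Oasl1 was at 17.1 CPM in the same library, 3.70 CPM in GFP day 14 replicate 2 and at most 0.160 CPM elsewhere.

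Among the 13 effectors and other induced genes, Rtp4 and Lgals3bp were low with Olig1 at both days. Rtp4 (ENSMUSG00000033355, chromosome 16, 23520291 to 23614222), a receptor chaperone of the Golgi, was at 155, 64.7 and 186 CPM at GFP day 14 and at 4.70, 0.326 and 17.2 CPM with Olig1. At day 7 it was at 133, 196 and 50.7 CPM with GFP and at 16.5, 4.47 and 44.9 CPM with Olig1. No Olig1 library reached a GFP library of its day. The log2 fold change was -4.32 ± 1.18 at day 14 (edgeR adjusted p = 0.438, DESeq2 adjusted p = 0.00329) and -2.59 ± 1.09 at day 7 (edgeR adjusted p = 0.309). Without Olig1 day 7 replicate 2 the day 7 value was -2.21 (edgeR adjusted p = 0.648).

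Lgals3bp (ENSMUSG00000033880, chromosome 11, 118392751 to 118402092), a secreted glycoprotein that binds galectins, was at 137, 227 and 85.9 CPM at GFP day 7 and at 26.7, 5.03 and 30.3 CPM at Olig1 day 7. At day 14 it was at 176, 146 and 188 CPM with GFP (an SD of 21.2 CPM), and at 5.91, 13.7 and 73.3 CPM with Olig1. The groups did not overlap at either day. The log2 fold change was -2.91 ± 0.88 at day 7 (edgeR adjusted p = 0.215, DESeq2 adjusted p = 0.0223) and -2.53 ± 0.87 at day 14 (edgeR adjusted p = 0.438), the latter -4.16 without Olig1 day 14 replicate 3. Without Olig1 day 7 replicate 2 the day 7 value was -2.56 (edgeR adjusted p = 0.632).

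Xaf1 and Cmpk2 were both near or at 0 in Olig1 day 14 replicates 2 and 3. Xaf1, an antagonist of the apoptosis inhibitor XIAP, was at 279, 22.8 and 130 CPM at GFP day 14 and at 26.5, 0.855 and 0.0532 CPM with Olig1 (-4.00 ± 1.53, edgeR adjusted p = 0.438). Olig1 replicate 1 overlapped with GFP replicate 2. Cmpk2, a mitochondrial nucleotide kinase, lies beside Rsad2 on chromosome 12 (26469204 to 26479837). It was at 35.99, 19.5 and 68.7 CPM at GFP day 14 and at 6.59, 0 and 0 CPM with Olig1, without overlap (-4.41 ± 2.02, edgeR adjusted p = 0.462). The sizes for both genes depended on Olig1 day 14 replicate 1: without it the fitted value of Xaf1 was -8.24, and Cmpk2 had 0 counts in the remaining Olig1 day 14 libraries. Rsad2, the antiviral enzyme viperin, was at 0, 3.84 and 19.8 CPM at GFP day 14 and at 3.63, 1.10 and 0 CPM with Olig1, so its groups overlapped (-2.62 ± 2.33).

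For Ifitm3, Ifi27 and Bst2, the effectors with the highest levels per kilobase of exon, the groups overlapped at both days. Ifitm3 was at 181, 164 and 1059 CPM at GFP day 14 and at 232, 62.0 and 206 CPM with Olig1 (-1.77 ± 1.09, edgeR adjusted p = 0.699). Ifi27 was at 23.8, 130 and 240 CPM against 81.9, 138 and 162 CPM (-0.25 ± 0.85), and Bst2 had a value of -0.81 ± 0.94. Ifi35, an interferon-induced leucine zipper protein, was at 75.3, 57.9 and 166 CPM at GFP day 14 and at 34.2, 29.8 and 40.1 CPM with Olig1. Its groups did not overlap (-1.69 ± 0.91, edgeR adjusted p = 0.581). Ifi44 and Samd9l, an antiviral translation inhibitor, had values of -2.49 ± 2.91 and -1.76 ± 2.84 at day 14, each with 0 counts in 2 of the 3 Olig1 libraries.

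Averaged over both days, 27 of 33 genes were negative (48.1% of all genes), with a median of -1.61 against 0.06. This average shares its libraries with the comparisons at each day. EdgeR called none of the 33 (0.654% of all genes), and 8 had an unadjusted p under 0.05 (14.9% of all genes), all lower with Olig1 (6.38%). Lgals3bp (-2.72 ± 0.62, edgeR adjusted p = 0.0601) and Rtp4 (-3.46 ± 0.80, 0.0640) came nearest to the threshold, followed by Oasl2 (-2.12 ± 0.63, 0.128). DESeq2 called 5 (Trim25, Trim30a and these 3), where it called 7.69% of all genes, and limma voom 2, Rtp4 and Lgals3bp (3.07%), all lower with Olig1. Without Olig1 day 14 replicate 3 edgeR called Rtp4 and Lgals3bp (adjusted p = 0.0431 and 0.0220), where it called 36 of all genes higher and 27 lower. Without the 4 libraries high in microglia markers, which leaves 1 GFP library at day 14, the median was -1.7 against 1.2 over all genes.

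Whether the virus difference itself differed between the days was tested as an interaction. EdgeR called 0 of 33 genes, and 0.00% of all genes, and DESeq2 and limma voom also called 0 of the 33. The interaction was negative for 26 of 33 (48.7% of all genes), with a median of -1.83. Without the 4 libraries high in microglia markers it was negative for 17 of 33, with a median of -0.16 against 2.32 over all genes, and without Olig1 day 7 replicate 3 for 22 of 33. At an unadjusted p of 0.05 there were 3 (9.90% of all genes). Isg15 had an interaction of -4.73 ± 1.83 (edgeR adjusted p = 0.412), from 0.89 at day 7 to -3.84 at day 14. Ifih1 had the largest (-9.99 ± 2.68, edgeR adjusted p = 0.341), and it was -5.37 without Olig1 day 7 replicate 2. The value for Oas1a, -8.03 ± 3.26 (edgeR adjusted p = 0.443), was -1.25 without Olig1 day 7 replicate 3 and 2.91 without the 4 libraries high in microglia markers.

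Time was compared within each virus, with the same libraries as above. With GFP, day 14 over day 7, edgeR called 0 of 33 genes (0.00% of all genes) and limma voom 0, 13 of 33 values were negative (53.4% of all genes) and the median was 0.44, against -0.14 over all genes. The median was 1.08 without GFP day 7 replicate 2, with 7 of 34 negative, 0.25 without GFP day 14 replicate 3 and 0.00 without the 4 libraries high in microglia markers. Isg15 alone had an unadjusted p under 0.05 (10.3% of all genes). Its GFP day 14 libraries lay above all GFP day 7 libraries, with a log2 fold change of 4.80 ± 1.45 (edgeR adjusted p = 0.442, DESeq2 adjusted p = 0.00713), and DESeq2 called no other of the genes (4.31% of all genes). Ddx58 (3.55 ± 1.86) and Ifi35 (1.92 ± 0.92, or 1.02 without GFP day 14 replicate 3) had the next smallest p among genes with counts at both days, and their groups overlapped. The groups did not overlap for 2 genes higher at day 14, Isg15 and Ifi44 (3.96% of all genes), and for 1 lower, Parp9 (10.5%). Mx2 had 13 counts at GFP day 7, all in replicate 3, and 0 at day 14.

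With Olig1, day 14 over day 7, 25 of 33 values were negative (50.2% of all genes) and the median was -1.15 against -0.01. This rested on Olig1 day 7 replicate 3, without which 17 of 33 were negative and the median was -0.34. Without the 4 libraries high in microglia markers, that one included, 17 of 33 were negative as well and the median was -0.35. EdgeR called 0 (0.0334% of all genes), limma voom 0 (2.09%) and DESeq2 1, Zbp1 (4.18%), and 7 genes had an unadjusted p under 0.05 (11.8% of all genes). The groups did not overlap for 6 genes lower at day 14 (Ifih1, Zbp1, Oas2, Mx2, Ifitm3 and Xaf1, 10.6% of all genes) and for 1 higher, Dtx3l (5.55%). Ifih1 had 2240 counts at day 7, most of them in replicate 2, and 3 at day 14, and without replicate 2 the log2 fold change moved from -10.54 ± 2.39 to -6.04 (edgeR adjusted p = 0.278 and 0.739). Zbp1 had 329 counts at day 7 and 1 at day 14 (edgeR adjusted p = 0.3997). Mx2 had 55 counts at day 7 and 0 at day 14, at least 25.7-fold lower against a floor of 3 counts over the group. Trim25 (3.90 ± 1.68) and Dtx3l (4.80 ± 2.20) were the 2 of the 7 that had positive values. Xaf1 had a value of -3.26 ± 1.48 (-7.50 without Olig1 day 14 replicate 1) and Ifitm3 one of -2.35 ± 1.11 (edgeR adjusted p = 0.421 and 0.433). The value for Oas1a, -5.51 ± 2.49, was 1.27 without Olig1 day 7 replicate 3.

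The interferon genes themselves were almost undetected. Of 20 ligand genes none passed the filter, and 18, among them Ifnb1 and Ifng, had 0 counts in every library. Ifnk had 14 counts in 2 libraries and Ifna16 had 1. The receptor and signalling genes were measured. Of 53 pathway genes outside the 36, 25 were tested and edgeR called none of them in the virus comparisons, with 2 of 25 at an unadjusted p under 0.05 at day 7 (13.9% of all genes) and 5 of 25 at day 14 (10.4%). Among receptors the smallest p was that of Ifngr1 at day 7 (-2.82 ± 1.35, edgeR adjusted p = 0.370). Traf6, an adaptor ligase, had 176 counts at GFP day 7 (1.23, 0.766 and 8.13 CPM) and 0 at Olig1 day 7 (edgeR adjusted p = 0.274). Socs1, a feedback inhibitor, had 152 counts at GFP day 14, all in replicate 3 (6.35 CPM). It had 0 at Olig1 day 14 (edgeR adjusted p = 0.455), so the groups overlapped. At day 7 Socs1 had 23 counts with GFP and 189 with Olig1. Irf8, a factor of myeloid cells, had 0 counts in all Olig1 day 14 libraries and was at least 391-fold lower there than with GFP (floor of 3 counts over the group, edgeR adjusted p = 0.438). It was at 0, 36.3 and 17.2 CPM in the GFP day 14 libraries, where the microglia markers summed to 25.3, 7172 and 10035 CPM. Myd88, the adaptor of Toll-like receptors, had values of opposite sign at the 2 days, -5.81 ± 2.51 at day 7 and 6.77 ± 2.61 at day 14 (edgeR adjusted p = 0.321 and 0.438), without overlap at either. Over both days its value was 0.48 ± 1.40, and its interaction was 12.58 ± 3.62 (edgeR adjusted p = 0.341).

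Of the neighbouring Ifit family only Ifit1 and Ifit3 were looked at, chosen with earlier results of these data known. Each was called by edgeR in a virus comparison. Ifit1, an RNA-binding effector, was at 486, 47.4 and 451 CPM at GFP day 14 and at 0.630, 0.0815 and 0.160 CPM with Olig1. Its log2 fold change at day 14 was -10.23 ± 1.28 (edgeR adjusted p = 0.0106), where 0.0400% of all genes were called. Ifit3 was lower over both days (-4.46 ± 0.89, edgeR adjusted p = 0.0445), where 0.654% of all genes were called. At the single days Ifit3 was not called (edgeR adjusted p = 0.275 at day 7 and 0.416 at day 14). For the GTPases Gbp2 and Igtp no adjusted p of a virus comparison was under 0.05. The difference between these genes and the 36 was not tested.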

How the data were processed

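The deposited table holds raw read counts per gene, which the authors made with FastQC, HISAT2 and HTSeq on the mouse genome mm10, per the submitters' processing notes. For these tools the version is not given in the sources used here, nor is the gene annotation or whether counting used the strand. RNA was amplified with SMART-Seq HT over 20 PCR cycles, per the labels' protocols, with no molecular identifiers, so precision is below that of the counts. Batches of sequencing are mentioned but not tied to libraries, and a batch and the groups cannot be told apart.

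Symbols, coordinates and exon lengths came from GENCODE M21 (GRCm38), which named 54165 of 54232 gene identifiers, and promoters from RefSeq. CPM are counts over the library total. Tests used edgeR 4.0.16 in R 4.3.3 (quasi-likelihood, robust, TMM, filterByExpr with a minimum count of 10), with 1 fit of 4 groups of 3 libraries and Benjamini-Hochberg adjustment over all tested genes at 0.05. By rule, each of the 36 genes was described, with tests for those called, for those with groups that did not overlap and an unadjusted p under 0.05, and for up to 3 more with the smallest p in a comparison, and other pathway genes were named for the smallest p of their list. Values of genes beyond this rule were chosen for description. Intervals of ratios are exact, 95%, and cover counting error only. Alternatives were DESeq2 1.42.0, limma voom 3.58.1 with sample weights, other scalings and filters, a replicate block, and leaving out libraries. The scripts were tested on simulated data with a smaller spread than that of these libraries. In the fit of these libraries the common biological coefficient of variation was 1.351. The simulation does not show how often changes are called at that spread. The genes and lists were chosen with earlier results of these data known. Summing Olig1 day 7 replicates 1 and 2 was an alternative chosen after seeing the data. Over the genes they hold, the per-library files did not differ from the series table, and 4 of them end within a line.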

Additional observations from a re-analysis of the deposited data

How the results depend on the processing

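No gene of the 36 was called by edgeR in any of the 6 comparisons as reported. The number called changed with the tool, the filter and the libraries left out. At day 7 DESeq2 called 2 (Trim25 and Lgals3bp), limma voom 1 (Trim25) and edgeR without a filter on low counts 1 (Lgals3bp). At day 14 DESeq2 called 4 (Oasl2, Trim30a, Rtp4 and Isg15) and the unfiltered fit 1 (Rtp4). Over both days DESeq2 called 5, limma voom 2 and the unfiltered fit 3 (Oasl2, Rtp4 and Lgals3bp). Leaving out 1 library at a time gave 0 to 2. The unfiltered fit called 1 interaction (Ifih1), and DESeq2 called 1 in the GFP time comparison (Isg15). In the Olig1 time comparison DESeq2 called 1 (Zbp1) and the unfiltered fit 1 (Ifih1). Among all genes, the unfiltered fit called 157 higher and 61 lower at day 7, and 12 and 11 at day 14. It called 243 and 158 over both days, 12 and 28 for the interaction, and 20 and 39 in the Olig1 time comparison. Over all genes at day 14, DESeq2 called 414 higher and 329 lower, against 3 and 3 with edgeR, and at day 7 569 and 385 against 21 and 13.

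The median log2 fold change at day 14 kept its sign without each library in turn, between -2.46 and -1.58, while that at day 7 ran from -1.24 to 0.20 and was 0.29 with limma voom, where that of all genes was 0.20. Ifih1 at day 7 ran from -1.41 (without Olig1 day 7 replicate 2) to 3.99, and Sp100 from -2.65 (without Olig1 day 7 replicate 3) to 9.43. Without the 4 libraries high in microglia markers the value of Oas1a was 2.91 for the interaction and 1.31 for the Olig1 time comparison. The latter ranged from -6.21 to 1.27 without single libraries. Of 602 values of 35 gene results under alternatives, 571 kept their direction and side of the threshold, 26 passed the threshold and 5 reversed, and the cause was not tested.

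In the GFP time comparison the median of all genes was -0.14 with TMM, -0.25 with DESeq2 size factors and -0.46 with library totals alone, and that of the 36 genes was 0.44, 0.32 and 0.12. With Olig1 day 7 replicates 1 and 2 summed, edgeR called 0 of the 36 at day 7, 19 of 34 were negative and the median was -0.28. Same-numbered libraries did not deviate together (18 correlations of -0.0702 to 0.0477). With the replicate block edgeR called 0 of the 36 in each comparison, and the medians were -0.64 at day 7 and -2.30 at day 14. Genes with under 3 counts in a library could not be told from absent ones at this depth.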
